A study of Mus musculus with 12 samples.

Results

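The 8 genes Rgs16, Prkcd, Tcf7l2, Lef1, Ntng1, Slitrk6, Gbx2 and Tnnt1 are widely used to mark neurons of the thalamus, and they were read here in mouse forebrain RNA. They were taken by name, as the Ensembl IDs that carry these symbols, 8 of 43629 IDs. The choice was made with earlier results of these data known. All 8 were among the 19145 genes kept by a filter on low counts, and the lowest count of any of them was 33 reads, of Gbx2.

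The libraries were labelled as 6 from mice given an rAAV, a recombinant adeno-associated virus used as a gene vector, encoding a collagen domain construct (3 males and 3 females) and 6 from mice given PBS (3 males and 3 females). The construct carries, by the title, a C1qTNF3 collagen domain fusion, and the question put to the RNA is what this transgene changed in the brain. Injections went into the cerebral ventricles of newborns, and 1 hemibrain was frozen at 3 months of age. No strain, promoter or capsid is named in the labels used here, and no group received a vector without the construct, so effects of vector and construct cannot be told apart.

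The labels do not hold in all libraries, so groups are named below as they were labelled. Reads of C1qtnf3 went against the treatment label in 4 libraries (collagen domain female 1 and female 3, PBS female 2 and male 1), and the sex-linked Xist and Ddx3y went against the sex label in 4 (collagen domain female 1 and male 3, PBS female 2 and male 1), which makes 5 libraries against either label and 7 in accord with both. Although the protocol names forebrain, 5 libraries (collagen domain female 2 and male 2, PBS female 2, female 3 and male 3) held 1 CPM or more (CPM, reads scaled to library size) of Gabra6, a GABA receptor subunit of cerebellar granule cells. A list of 12 cerebellum and hindbrain genes summed to between 358 and 795 CPM in those 5 and to between 12.3 and 32.1 CPM in the other 7. The 32.1 CPM was in PBS male 1, which held 13.7 CPM of Slc6a5, a gene of that list. The rest of the 7 held at most 0.440 CPM of Slc6a5. Below, libraries without cerebellar reads are those under 1 CPM of Gabra6, whatever their other hindbrain genes. Libraries held 39272127 to 52323985 counted reads. The labels do not say that each library came from a separate mouse, so every p-value reflects the spread among libraries alone. In bulk RNA, fewer cells of a type and less RNA per cell cannot be told apart.

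The thalamus relays sensory and motor signals to the cortex through glutamatergic neurons grouped into nuclei. In the mouse embryo the homeodomain factor Gbx2 is needed for thalamic neurons to mature, and Tcf7l2 and Lef1 belong to the TCF/LEF family of DNA-binding factors that join beta-catenin when Wnt ligands signal. Tcf7l2 stays on in adult thalamic and habenular neurons and keeps their electrical identity. Prkcd, a protein kinase C isoform switched on by diacylglycerol, marks sensory relay nuclei, and Rgs16 speeds the shut-off of G protein signals. Ntng1 and Slitrk6 sit on the cell surface, where netrin-G1 is carried on thalamocortical axons and Slitrk6 is a leucine-rich repeat protein of neurites. Tnnt1 is the slow skeletal muscle form of troponin T, a subunit of the calcium switch of striated muscle, and its RNA is also found in thalamus.

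Because the 8 genes include 2 TCF/LEF factors and varied together between libraries, the promoters were read for short motifs. RefSeq (GRCm38.p6) gave 13 promoters for the 8 genes, each 300 bases long (250 before and 50 after the start). Lef1 gave 4 of them, and a pair of its windows overlap (chr3:131110047-131110346 and chr3:131110073-131110372), so the 13 are not all separate. The TCF/LEF core CTTTGA, read on both strands, stood in 2 of the 13, against 16.0% of 32851 promoters of the same length. The E-box CACGTG, which reads the same on both strands, stood in 4 of the 13, in Prkcd, Lef1, Gbx2 and Slitrk6, against 7.15% of all promoters. The homeodomain core TAATTA (5.29% of all promoters) and the cyclic AMP response element TGACGTCA (1.79%) stood in none of the 13. The motifs did not overlap each other in the promoters printed. A match is only a run of letters and does not show a factor bound there. Below are the Prkcd and Lef1 promoters with both motifs, the Gbx2 promoter with the E-box, and that of Rgs16 with neither, 5′ to 3′ on the strand of the gene. Capitals mark TCAAAG, the reverse strand form of the TCF/LEF core, and CACGTG.
Prkcd, chr14:30626159-30626458, minus strand: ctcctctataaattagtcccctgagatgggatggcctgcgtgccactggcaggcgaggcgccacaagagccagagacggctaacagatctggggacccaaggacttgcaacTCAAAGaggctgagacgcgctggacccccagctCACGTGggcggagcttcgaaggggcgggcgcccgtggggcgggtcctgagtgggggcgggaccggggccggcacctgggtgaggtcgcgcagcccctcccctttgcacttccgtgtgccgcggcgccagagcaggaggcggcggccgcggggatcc
Lef1, the start that lies farthest downstream of its 4, chr3:131156044-131156343, plus strand: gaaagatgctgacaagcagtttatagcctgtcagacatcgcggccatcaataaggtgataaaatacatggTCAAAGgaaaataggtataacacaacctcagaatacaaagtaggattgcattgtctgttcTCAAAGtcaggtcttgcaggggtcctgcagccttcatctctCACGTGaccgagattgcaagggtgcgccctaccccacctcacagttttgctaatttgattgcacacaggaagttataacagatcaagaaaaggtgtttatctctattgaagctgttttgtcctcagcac
Gbx2, chr1:89931127-89931426, minus strand: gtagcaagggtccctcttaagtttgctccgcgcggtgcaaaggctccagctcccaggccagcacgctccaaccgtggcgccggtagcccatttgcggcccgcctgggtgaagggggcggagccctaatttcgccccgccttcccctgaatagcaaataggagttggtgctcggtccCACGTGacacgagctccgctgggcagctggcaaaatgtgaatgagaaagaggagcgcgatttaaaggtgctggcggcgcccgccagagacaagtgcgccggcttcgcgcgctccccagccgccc
Rgs16, chr1:153740103-153740402, plus strand: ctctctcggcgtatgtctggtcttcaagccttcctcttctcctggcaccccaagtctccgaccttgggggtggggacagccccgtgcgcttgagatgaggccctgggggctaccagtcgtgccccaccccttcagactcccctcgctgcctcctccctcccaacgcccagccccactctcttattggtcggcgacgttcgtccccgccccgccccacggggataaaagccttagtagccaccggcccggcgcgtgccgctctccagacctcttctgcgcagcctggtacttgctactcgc
In Prkcd the TCF/LEF core began 139 bases before the start and the E-box 106 bases before it. In this Lef1 promoter a pair of TCF/LEF cores began 180 and 120 bases before the start and the E-box 79 bases before it. In Gbx2 the E-box began 74 bases before the start. The GC content was 69.3% in the Prkcd window, 43.7% in that of Lef1, 64.7% in that of Gbx2 and 66.0% in that of Rgs16, where the median of all promoters was 52.7%.

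Levels between genes were compared per kilobase of exon (RPKM, with exon lengths from GENCODE M21). Prkcd stood highest with a median of 10.8 RPKM (range 7.78 to 18.3 over 12 libraries). Rgs16 followed at 5.96, Ntng1 at 5.56, Tnnt1 at 3.22, Tcf7l2 at 2.68 and Slitrk6 at 1.74 RPKM. The factors Lef1 and Gbx2 were lowest, at 0.592 and 0.556 RPKM. Neighbours in this order kept it in 12 of 12 libraries for Prkcd over Rgs16, Ntng1 over Tnnt1, Tcf7l2 over Slitrk6 and Slitrk6 over Lef1. Rgs16 was above Ntng1 in 11, Tnnt1 above Tcf7l2 in 9 and Lef1 above Gbx2 in 8 of 12. Among neighbours in this order, pooled over the libraries, only the ranges of Slitrk6 and Lef1 did not overlap. The order was thus held in every library for 4 neighbouring pairs and not for the other 3, Rgs16 and Ntng1, Tnnt1 and Tcf7l2, and Lef1 and Gbx2.

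With males and females together, none of the 8 genes was called between libraries labelled collagen domain and PBS (edgeR quasi-likelihood test over 19145 genes, adjusted p = 1 for each). The background was likewise empty, since 0% of genes passed. C1qtnf3 was thus not called either, though it ran from 0.186 CPM in collagen domain female 3 to 107 CPM in collagen domain female 2. As the test by label did not find the gene of the construct, it cannot show that the 8 genes were unchanged. At an unadjusted p under 0.05 stood 0 of the 8 genes and 354 of all genes (1.85%), and DESeq2 called 0. The log2 fold changes of the 8 genes, collagen domain over PBS, had a median of 0.03 with 5 of 8 above 0, where all genes had a median of 0.00022. No gene of the 8 separated the 6 libraries of one treatment from the 6 of the other in CPM, as 0.0679% of all genes did.

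Among the transcription factors, Gbx2 (ENSMUSG00000034486) showed the widest difference by label. It lay at a lowest value of 1.002, a median of 1.54 and a highest of 2.14 CPM (TMM-scaled) in collagen domain libraries, against 0.710, 1.06 and 2.02 CPM in PBS libraries. The ranges overlapped over most of their length, and the log2 fold change was 0.39 (SE 0.261, 95% interval -0.18 to 0.95, unadjusted p = 0.163 in edgeR). Gbx2 was also the thinnest measurement, with 33 to 92 reads per library. Tcf7l2 (ENSMUSG00000024985) had 19.7, 22.7 and 24.7 CPM as lowest, median and highest in collagen domain libraries, against 18.4, 25.5 and 29.9 CPM in PBS libraries. PBS male 1 was the lowest of all 12 and PBS male 2 the highest, so the collagen domain range lay inside the PBS range. The log2 fold change was -0.15 (SE 0.105, 95% interval -0.38 to 0.08). It was between -0.24 and -0.092 with each library left out in turn. The -0.24 came without PBS male 1, the lowest library and one against its label (unadjusted p = 0.00734, adjusted p = 1, edgeR). Without the others against their treatment label it was -0.12 (collagen domain female 1), -0.17 (collagen domain female 3) and -0.17 (PBS female 2). Their unadjusted p in edgeR was 0.308, 0.156 and 0.170. Lef1 (ENSMUSG00000027985) averaged 5.66 ± 0.787 CPM in collagen domain libraries and 5.44 ± 0.963 CPM in PBS libraries (SD, n = 6 each), with a log2 fold change of 0.06 (SE 0.129).

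The signalling genes were as even. Rgs16 (ENSMUSG00000026475) averaged 15.0 ± 2.21 CPM in collagen domain libraries and 14.1 ± 1.77 CPM in PBS libraries (SD, n = 6 each), with a log2 fold change of 0.10 (SE 0.109, 95% interval -0.14 to 0.33). Prkcd (ENSMUSG00000021948) lay at 54.6, 60.1 and 79.9 CPM as lowest, median and highest in collagen domain libraries, against 43.2, 62.6 and 102 CPM in PBS libraries. The PBS libraries thus held both the lowest and the highest Prkcd value of the series, in female 1 and male 2. Its log2 fold change was -0.03 (SE 0.184, 95% interval -0.43 to 0.37).

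Of the surface proteins, Ntng1 (ENSMUSG00000059857) averaged 45.8 ± 3.77 CPM in collagen domain libraries and 47.0 ± 7.41 CPM in PBS libraries (SD, n = 6 each), with a log2 fold change of -0.04 (SE 0.0996). Slitrk6 (ENSMUSG00000045871) averaged 8.06 ± 1.66 CPM in collagen domain libraries and 8.12 ± 2.73 CPM in PBS libraries (SD, n = 6 each), with a log2 fold change of 0.01 (SE 0.203). Tnnt1 (ENSMUSG00000064179) averaged 7.84 ± 2.43 CPM in collagen domain libraries and 7.34 ± 1.70 CPM in PBS libraries (SD, n = 6 each), with a log2 fold change of 0.11 (SE 0.206). The sign of the differences of Prkcd, Ntng1, Slitrk6 and Tnnt1 turned under some alternatives, without a call under any. Without the 4 libraries that went against their treatment label, Tcf7l2 stood at -0.26 (edgeR log2 fold change, unadjusted p = 0.0164, adjusted p = 0.819) and Gbx2 at 0.25 (adjusted p = 0.859), and Slitrk6 and Tnnt1 turned to -0.36 and -0.31.

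**Figure D1:**
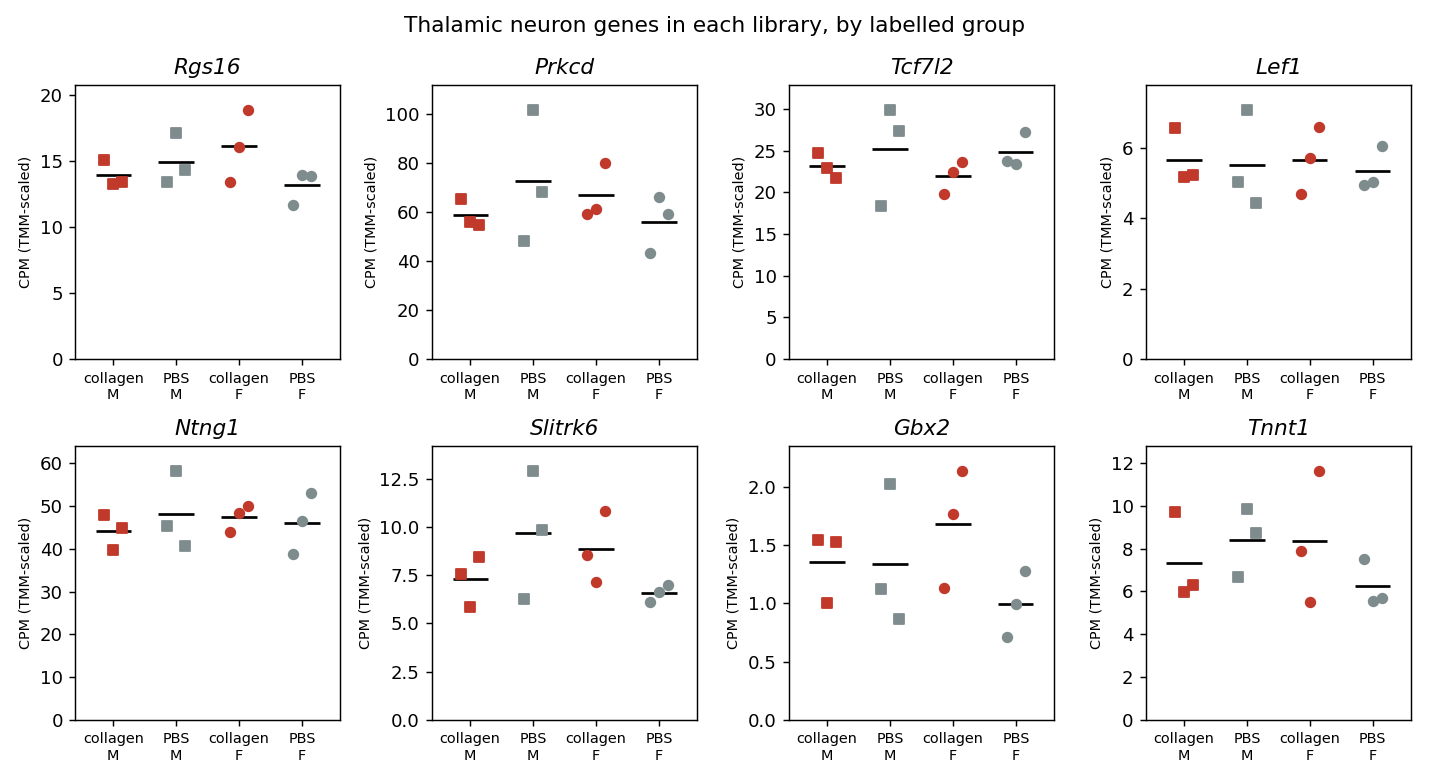
Each panel plots 1 gene in TMM-scaled CPM (axis from 0) against the labelled group (M, male; F, female), with 1 point per library (red, collagen domain; grey, PBS; squares, male; circles, female) and a bar at the mean of 3. The collagen domain and PBS ranges overlap for all 8 genes, and PBS male 2 is the highest library for 5 of them.

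Within labelled males, collagen domain against PBS, 2 of the 8 log2 fold changes lay above 0 and their median was -0.12 (all genes 0.01). Within labelled females 7 of 8 lay above 0 and the median was 0.27 (all genes -0.01). edgeR called 0 of the 8 genes and 0% of all genes in either sex, and at an unadjusted p under 0.05 stood 0 of the 8 in each, against 1.7% of genes in males and 1.46% in females. DESeq2 called 3 genes in males, none of them among the 8. In males 0 of the 8 separated the 3 libraries of one treatment from the 3 of the other in CPM, as 4.95% of all genes did. The interaction of treatment and sex was also called for 0 of the 8 genes and 0% of all, with a median of -0.48 for the 8 (male minus female difference, 1 of 8 above 0) against 0.0021 for all genes. The 8 genes vary together, as shown further on, so these counts are not 8 separate observations.

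Slitrk6 was the single gene of the 8 with an interaction at an unadjusted p under 0.05, as 1.37% of all genes had. It measured 7.57, 5.87 and 8.43 CPM in collagen domain males 1 to 3, against 6.25, 12.9 and 9.84 CPM in PBS males 1 to 3. It measured 8.53, 7.17 and 10.8 CPM in collagen domain females 1 to 3, against 6.10, 6.62 and 6.98 CPM in PBS females 1 to 3. In males the groups overlapped, and in females every collagen domain library lay above every PBS library, which was so for 1 of the 8 genes and for 5.55% of all genes. The log2 fold change was -0.41 in males (SE 0.239) and 0.43 in females (SE 0.239), and their difference was -0.83 (SE 0.339, 95% interval -1.58 to -0.09, unadjusted p = 0.0309, adjusted p = 1, edgeR). The difference ranged from -1.07 to -0.57 when each library was left out in turn. Collagen domain female 1 and female 3, PBS female 2 and PBS male 1 went against their treatment label. Collagen domain female 1 and male 3, PBS female 2 and PBS male 1 went against their sex label. Values within a sex, for Slitrk6 and for the genes that follow, are therefore comparisons of labels.

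Gbx2 in females came to 1.14, 1.77 and 2.14 CPM in the collagen domain libraries, against 0.710, 0.999 and 1.28 CPM in the PBS libraries. The groups overlapped through collagen domain female 1, and the log2 fold change was 0.75 (SE 0.353, unadjusted p = 0.0563, adjusted p = 1, edgeR), where males gave 0.02 (SE 0.353). Rgs16 in females came to 13.4, 16.1 and 18.9 CPM in the collagen domain libraries, against 11.7, 13.99 and 13.9 CPM in the PBS libraries, which overlapped, with a log2 fold change of 0.29 (SE 0.138, unadjusted p = 0.0574, edgeR). Prkcd had a log2 fold change of -0.31 in males (SE 0.242) and 0.25 in females (SE 0.242). Tnnt1 had -0.20 in males (SE 0.274) and 0.42 in females (SE 0.274), and the value in females turned to -0.27 without the 4 libraries that went against their treatment label. Of markers of other regions in females, 1 of 12 cerebellum and hindbrain genes had a log2 fold change above 0 (median -0.45), as had 3 of 10 cortex genes (-0.03). Above 0 were also 10 of 10 choroid plexus genes (median 0.48), 12 of 13 hypothalamus genes (0.38) and 10 of 10 striatum genes (0.14). In each of these lists 0 genes were called. Their part in the values of the 8 genes was not tested.

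**Figure D2:**
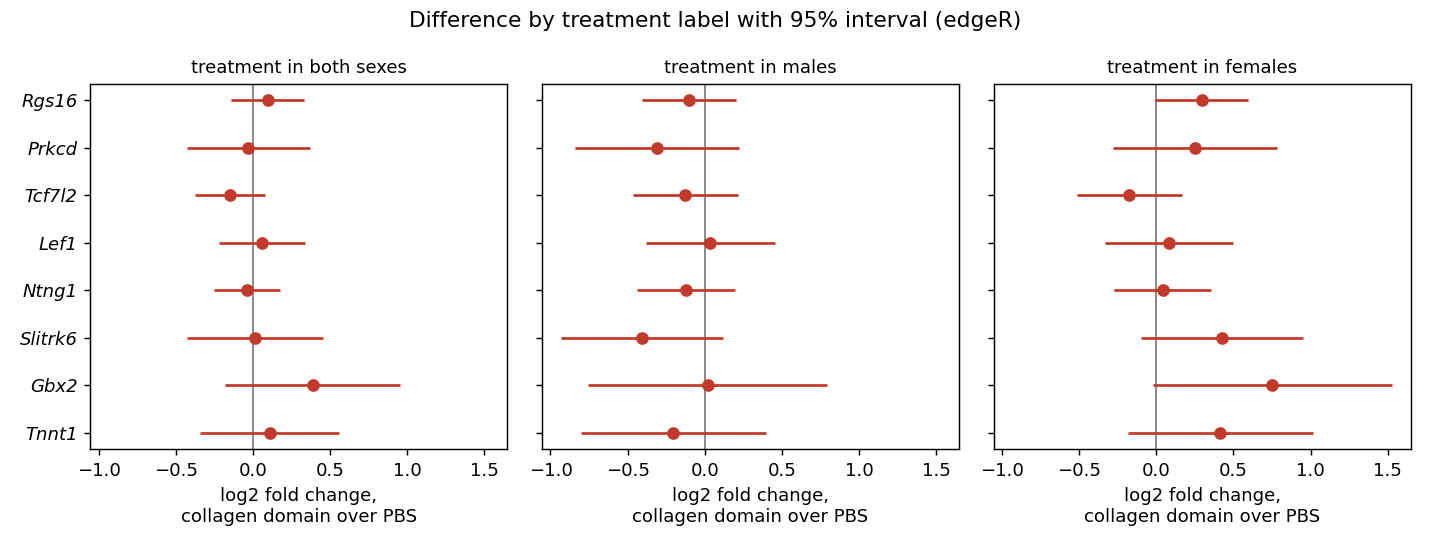
Points give the edgeR log2 fold change of collagen domain over PBS for each gene and lines its 95% interval, with both sexes together on the left, males in the middle and females on the right. All intervals include 0, and the points of 7 of 8 genes lie right of 0 in females and those of 2 of 8 in males.

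Between labelled males and females the 8 genes differed little. Of 8 log2 fold changes, male over female, 6 lay above 0 with a median of 0.05 (all genes -0.0013), and the values ran from -0.02 for Ntng1 and Rgs16 to 0.14 for Slitrk6 (SE 0.203). edgeR called 0 of the 8 and 0% of all genes (1.97% at an unadjusted p under 0.05, none of the 8 among them), while DESeq2 called 8 genes, none of the 8 described here. None of the 8 separated males from females in CPM, as 0.104% of all genes did. The sex labels are contradicted in 4 libraries, so this comparison is one of labels. As edgeR called no gene, it did not call Xist or Ddx3y either. The lack of calls therefore cannot show that the 8 genes are alike between the sexes.

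Some libraries were high or low for most of the 8 genes. Collagen domain female 3 was among the highest 3 libraries for 7 of the 8 genes, and PBS male 2 for 8 of 8. Collagen domain female 3 held the top value of Rgs16, Gbx2 and Tnnt1, and PBS male 2 that of Prkcd, Tcf7l2, Lef1, Ntng1 and Slitrk6. C1qtnf3 had 8 reads in collagen domain female 3, against its treatment label, and 28 reads in PBS male 2. PBS female 1 was among the lowest 3 for 6 of the 8 and PBS male 1 for 4. Summed over the 8 genes, levels ran from 150 to 204 CPM in collagen domain libraries and from 137 to 239 CPM in PBS libraries. The sums lay between 150 and 174 CPM in the 5 libraries with cerebellar reads and between 137 and 239 CPM in the 7 without. Tnnt1 averaged 6.29 ± 1.38 CPM in the 5 and 8.51 ± 1.95 CPM in the 7 (SD). Tcf7l2 alone of the 8 had the higher mean in the 5, at 24.7 against 23.1 CPM. The highest library exceeded the lowest by 3.02-fold for Gbx2, 2.36-fold for Prkcd, 2.20-fold for Slitrk6 and 2.11-fold for Tnnt1, and by 1.503-fold to 1.63-fold for Ntng1, Lef1, Rgs16 and Tcf7l2. The biological coefficient of variation stood above the trend over all genes at the same level for 4 of the 8, Prkcd (21.3% against 14.3%), Tnnt1 (24.2% against 19.5%), Slitrk6 (21.4% against 19.2%) and Gbx2 (29.8% against 28.9%). It stood below the trend for the other 4, Rgs16 (13.7% against 18.0%), Lef1 (17.5% against 20.8%), Tcf7l2 (14.8% against 16.3%) and Ntng1 (13.6% against 14.4%).

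Across the 12 libraries all 28 pairs of the 8 genes had a positive Pearson's r of log2(CPM + 1), with a median of 0.62. Pairs among all 15483 genes with a mean of at least 1 CPM had a median of 9.6e-05. The 8 genes were chosen with earlier results of these data known, so this comparison may not be independent of that choice. Of the 28 pairs, 12 passed a permutation test with 100000 resamples after Benjamini-Hochberg adjustment over the 28, and 8 passed with Spearman's rho. The lowest r among those 12 was 0.675, which 7.88% of all gene pairs reached, against 42.9% of the 28. The strongest pair was Rgs16 with Gbx2 (r = 0.87, permutation p = 9.0e-05, adjusted p = 0.00252; rho = 0.73, permutation p = 0.00984, adjusted p = 0.0344). Prkcd and Slitrk6 followed (r = 0.84, permutation p = 0.00034, adjusted p = 0.00476; rho = 0.75, permutation p = 0.00717, adjusted p = 0.0287), then Prkcd and Rgs16 (r = 0.84, permutation p = 0.00091, adjusted p = 0.0065; rho = 0.90, permutation p = 0.00016, adjusted p = 0.00448). At the weak end stood Tcf7l2 and Gbx2 (r = 0.20, permutation p = 0.538, adjusted p = 0.538; rho = 0.06, permutation p = 0.852, adjusted p = 0.852). Rgs16 was in 5 called pairs, Prkcd, Ntng1 and Gbx2 in 4 each, Lef1 and Slitrk6 in 3 each, Tnnt1 in 1 and Tcf7l2 in 0.

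This relation rested largely on collagen domain female 3 and PBS male 2. Without both of them the median r of the 28 pairs was 0.24 and 22 pairs stayed above 0, where all gene pairs had a median of 0.00048. In a separate reading, without the 2 libraries farthest from the median of the first gene of each pair, which were PBS male 2 and either collagen domain female 3, PBS female 1 or PBS male 1, the median r was 0.30, 23 of 28 pairs stayed above 0, and none passed the adjusted threshold (6 at an unadjusted p under 0.05). For Rgs16 and Gbx2 that value was 0.74, for Prkcd and Slitrk6 0.69, for Prkcd and Rgs16 0.75 and for Tcf7l2 and Gbx2 -0.17. Leaving out collagen domain female 3 alone left 7 called pairs, and leaving out PBS male 2 alone left 3. Within the 7 libraries without cerebellar reads the median r was 0.83 (0.50 to 0.95) and 16 pairs passed. That set holds both of the high libraries, and the 5 libraries with cerebellar reads are too few for an r of their own.

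**Figure D3:**
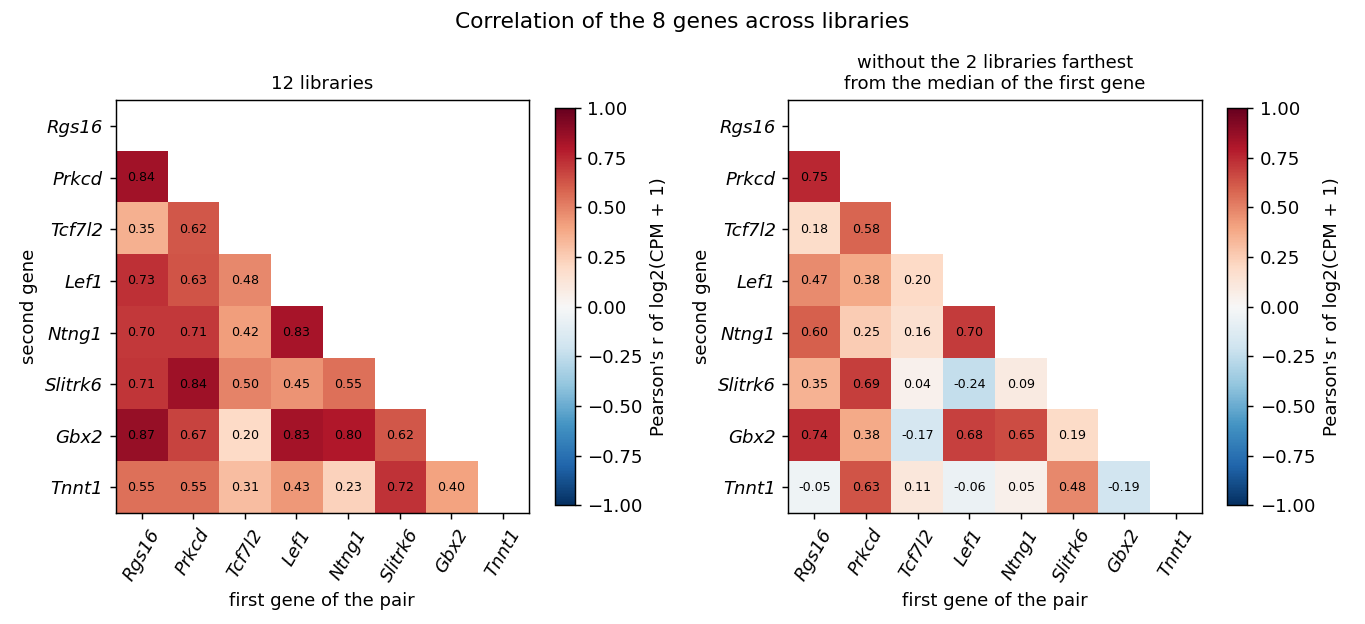
Each cell gives Pearson's r of log2(CPM + 1) for a pair of genes, over 12 libraries on the left and without the 2 libraries farthest from the median of the first gene on the right. All 28 values on the left are positive, with a median of 0.62, and 23 of 28 are on the right, with a median of 0.30.

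The genes whose pattern over the 12 libraries was most like the mean of the 8 were Plekhg1 (r = 0.93), a guanine nucleotide exchange factor, Synpo2 (r = 0.90), an actin-binding protein, and Opn3 (r = 0.87), a non-visual opsin. After them came Wnt9b (0.84), a Wnt ligand, Ptpn3 (0.82), a protein tyrosine phosphatase, Dmrta2 (0.80), Crb2 (0.80), Kin (0.79), Tldc1 (0.79) and Amotl1 (0.78). These values are descriptions of the same 12 libraries and were ranked among 15483 genes. Plekhg1 peaked in PBS male 2 at 50.2 CPM and was lowest in PBS female 1 at 23.1 CPM. Taken singly, Prkcd was most like Plekhg1 (r = 0.92) and Shox2 (0.86), Rgs16 like Wnt9b (0.91), Lef1 like Plekha7 (0.90), Ntng1 like Vps13b (0.94), Slitrk6 like Ptpn4 (0.88), Gbx2 like Sntb1 (0.94) and Tnnt1 like Mettl24 and Ramp3 (0.89 each). Tcf7l2 went with Trpm6 (0.93), a magnesium channel gene. By this ranking of 3 genes each, Trpm6 was near none of the other 7. Wnt9b, Shox2, Plekha7, Vps13b, Sntb1 and Mettl24 were likewise each listed for a single gene of the 8.

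Among 15 other genes listed for thalamic nuclei, 11 had a positive r to the mean of the 8, with a median of 0.51 where all genes had -0.03. Plekhg1, Synpo2, Ptpn3, Shox2 (0.75) and Ramp3 (0.67) stood highest. Slc17a6, the vesicular glutamate transporter of thalamic and many other subcortical neurons, was at 0.02, and Calb2, the calcium-binding protein calretinin, at -0.34. Summed, the 15 genes ran from 1036 to 1170 CPM in libraries with cerebellar reads and from 776 to 1092 CPM in those without. The part of cerebellar tissue in the r of single genes was not tested. The 8 habenula genes, which mark the small nucleus above the thalamus, had a median of 0.21, the choroid plexus list 0.43, the striatum list 0.38, the hypothalamus list 0.34, the cortex list 0.11 and the cerebellum and hindbrain list -0.26. These medians cover the list genes with a mean of at least 1 CPM, share the same 12 libraries and were not compared by a test. The lists were chosen with earlier results of these data known, so they are not independent of the pattern of the 8. Plekhg1, Synpo2 and Ptpn3 are also among the genes ranked above as most like the mean of the 8.

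**Figure D4:**
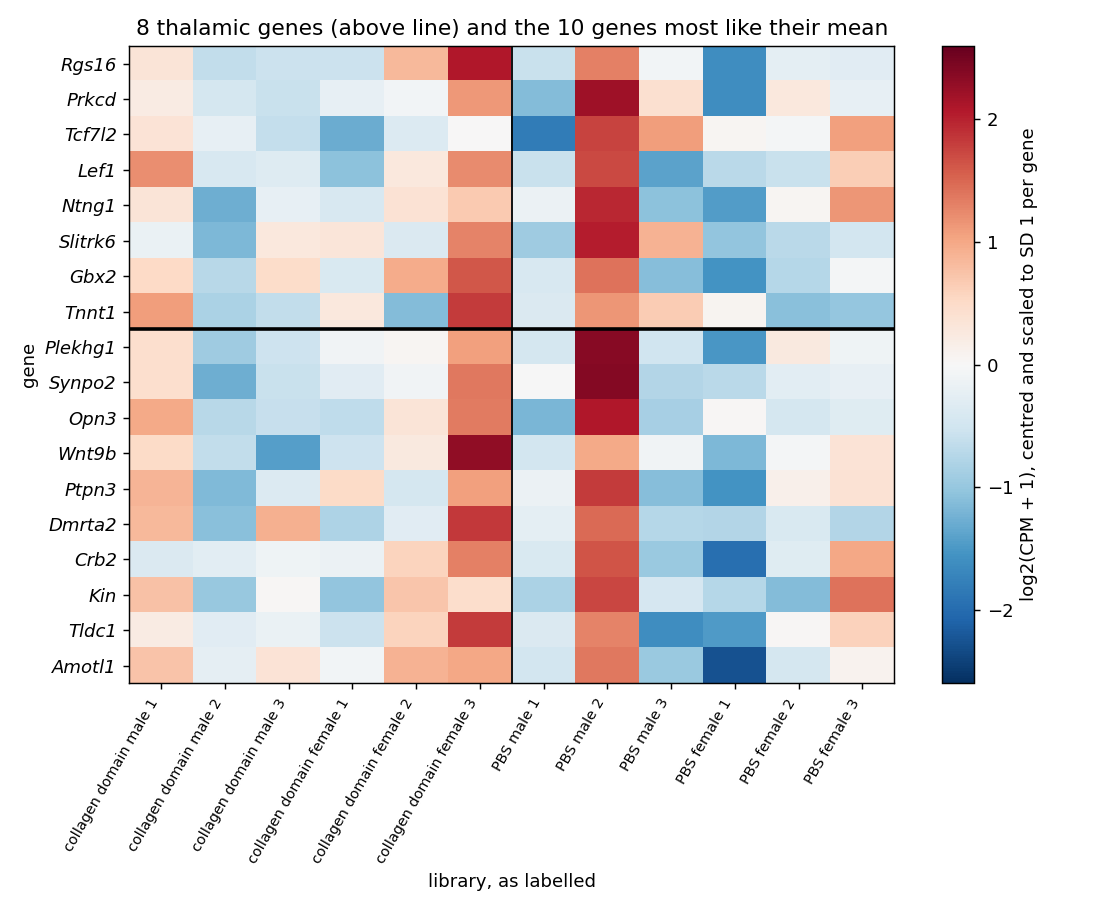
Colours give log2(CPM + 1) of each gene (rows, the 8 thalamic genes above the line and the 10 genes most like their mean below it), centred and scaled to an SD of 1, in each library (columns, collagen domain left of the line and PBS right of it). Collagen domain female 3 and PBS male 2 are red for nearly all genes, and PBS female 1 is blue for most.

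By treatment label, no gene of the related lists was called either. Of the 15 other thalamus genes 0 were called in either direction, 7 lay above 0 and the median log2 fold change was -0.0016. The 2 smallest p-values belonged to Lhx9, a LIM homeodomain factor, at -0.22 (SE 0.130) and to Cacna1g, the T-type calcium channel of thalamic burst firing, at 0.11 (SE 0.148). Of 8 habenula genes 0 were called and 3 lay above 0 (median -0.05), led by the nicotinic receptor subunit Chrnb4 at 0.38 (SE 0.187). Of 19 Wnt pathway genes 0 were called and 12 lay above 0 (median 0.04). Rspo1, a secreted amplifier of Wnt signals, had the smallest p of that list, at 0.41 (SE 0.153, unadjusted p = 0.0201, adjusted p = 1, edgeR). Axin2, the feedback inhibitor used as a readout of Wnt signalling, stood at -0.0018 (SE 0.0830), and beta-catenin itself, Ctnnb1, at 0.03 (SE 0.0436). In the lists of other regions 0 genes were called in each. Of the hypothalamus list 13 of 13 genes lay above 0 (median 0.41), as did 10 of 10 choroid plexus genes (0.33) and 10 of 10 striatum genes (0.13), while 2 of 12 cerebellum and hindbrain genes did (-0.21). Summed levels overlapped between the treatments, at 60.9 to 154 CPM in collagen domain libraries against 45.6 to 84.4 CPM in PBS libraries for hypothalamus and at 383 to 992 CPM in collagen domain libraries against 375 to 774 CPM in PBS libraries for choroid plexus.

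Some of the 8 genes are also expressed outside thalamic neurons, Tcf7l2 in maturing oligodendrocytes and Lef1 in endothelial cells. The oligodendrocyte list had 2 of 10 genes above 0 by treatment label (median -0.04) and a median r of -0.01 to the mean of the 8, and the endothelium list had 5 of 8 above 0 (median 0.04) and a median r of -0.13. These r are to the mean of the 8 and not to Tcf7l2 or Lef1 alone. How much of the RNA of either gene came from such cells was not tested. For Tnnt1, the muscle genes were read beside it. Tnni1, the slow muscle troponin I, lay between 2.04 and 6.28 CPM, and Tnnc1, the slow and cardiac troponin C, between 2.00 and 5.14 CPM. Ckm, the muscle creatine kinase, and Tnnt3, the fast muscle troponin T, did not pass the filter on low counts. The 6 muscle genes that passed had 2 above 0 by treatment label (median log2 fold change -0.14), and the 4 of them with a mean of at least 1 CPM had a median r of 0.03 to the mean of the 8. This r is likewise not to Tnnt1 alone, and whether muscle genes followed Tnnt1 was not tested. These 6 muscle genes summed to between 13.2 and 18.7 CPM in collagen domain libraries and to between 14.4 and 18.9 CPM in PBS libraries.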

How the data were processed

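The deposited table gives raw counts of reads as whole numbers for each Ensembl ID, not normalised by the authors, for 12 poly(A) libraries of pulverised mouse forebrain. Per the labels' protocols, TRIzol and a column were used for the RNA, and libraries came from an unstranded TruSeq version 2 kit. STAR, DESeq2 and GRCm39 are named per the submitters' processing notes, without role or version, and strand setting and counting tool are not given in the sources used here. Without strand, reads of a gene and of an antisense partner cannot be told apart. Symbols came from GENCODE M21 (42462 of 43629 IDs).

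Counts were tested with edgeR 4.0.16 (filterByExpr on 4 groups, TMM, quasi-likelihood F-test, Benjamini-Hochberg over 19145 genes, threshold 0.05), in an additive fit of sex and treatment and a fit of the 4 groups. CPM uses TMM-scaled totals, ± is the SD between libraries and 95% intervals come from the fit. A library went against its treatment label with under 1000 C1qtnf3 reads under collagen domain or 1000 or more under PBS. Correlations used log2(CPM + 1) in SciPy 1.17.1. RPKM used GENCODE M21 exon lengths (GRCm38), which may differ from the authors' gene models. The fits and the correlation test were tested on simulated data.

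Named genes are the 8, the label checks, the genes of smallest p of 3 lists, and those most like the 8. Alternatives were DESeq2 1.42.0, limma-voom (limma 3.58.1), relative log expression factors, no filter, 1 CPM in 6 libraries, a replicate block, a hindbrain covariate and each library left out. Fits without the 4 or 5 libraries against their labels, or by cerebellar reads, were chosen after seeing the data. The genes and lists were chosen with earlier results of these data known.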

Additional observations from a re-analysis of the deposited data

Results flagged for a closer look

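One value stood far from the others of its labelled treatment. Rspo1 had 3.06 CPM in PBS male 3, the lowest of the 6 PBS libraries, where the next was at 4.41 CPM, and the gap made up 0.771 of the range of the 6 libraries. None of the 8 thalamic genes had such a library. In all, 28 sets of 6 libraries were looked at and 1 was marked, while chance marks about 1 in 20.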

How the results depend on the processing

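No alternative called any of the 8 genes in any comparison. Counts of all genes called stayed at 0 except as follows. DESeq2 called 3 genes for treatment in males, 1 for the interaction and 8 between the sexes. Without the 4 libraries against their treatment label, edgeR called 2 genes for treatment in both sexes, 1 in females, 1 in males and 1 between the sexes, and without the 5 against either label 2, 1, 1 and 8. Those fits hold 1 collagen domain female library, assumed to vary like the rest. Leaving out 1 library gave 0 to 5 genes between the sexes (5 without PBS male 3), 0 to 1 for treatment in males (1 without collagen domain female 3), and 3 to 17 called pairs of the 28.

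Some log2 fold changes near 0 changed sign. For treatment in both sexes, Prkcd came to 0.0059 with limma-voom and 0.062 in the 7 libraries without cerebellar reads, where Ntng1 was 0.013. Slitrk6 was -0.077 and Tnnt1 -0.026 with the hindbrain covariate, -0.36 and -0.31 without the 4 libraries, -0.41 and -0.27 without the 5, and -0.28 and -0.27 in the 5 with cerebellar reads. Nwd2, a habenula gene, was 0.011 without the 4 libraries and 0.039 in the 5 with cerebellar reads. Between the sexes Gbx2 was -0.0084 with the covariate, and Rgs16 and Ntng1 were 0.075 and 0.0060 without the 4 libraries and 0.11 and 0.013 without the 5. In females Tnnt1 was -0.27 without the 4 and -0.28 without the 5. In males Gbx2 was -0.0084 with the covariate, -0.088 without the 4 and -0.20 without the 5, and Lef1 -0.024 without the 4. The interaction of Tcf7l2 was -0.12 without the 4 and -0.092 without the 5, and that of Tnnt1 0.011 without the 5. With 1 library left out, values that crossed 0 ranged as follows. For treatment in both sexes Prkcd ran from -0.13 to 0.14, Ntng1 from -0.096 to 0.041, Slitrk6 from -0.11 to 0.17 and Tnnt1 from -0.068 to 0.20. In females Lef1 ran from -0.041 to 0.20 and Ntng1 from -0.065 to 0.15. In males Gbx2 ran from -0.21 to 0.45, Lef1 from -0.10 to 0.25, Ntng1 from -0.23 to 0.041, Prkcd from -0.54 to 0.0097, Rgs16 from -0.17 to 0.0084 and Tcf7l2 from -0.31 to 0.015. The interaction of Lef1 ran from -0.18 to 0.17 and that of Tcf7l2 from -0.13 to 0.19. Between the sexes Gbx2 ran from -0.18 to 0.19, Lef1 from -0.077 to 0.082, Ntng1 from -0.10 to 0.022, Prkcd from -0.081 to 0.19, Rgs16 from -0.086 to 0.065, Slitrk6 from -0.023 to 0.26 and Tcf7l2 from -0.011 to 0.13. The r of Tcf7l2 and Gbx2 ran from -0.065 to 0.36. The cause was not tested.

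Deviations of same-numbered libraries correlated at 0.56, 0.52 and 0.18 for female 1, female 2 and male 1, and at -0.19, -0.33 and -0.14 for female 3, male 2 and male 3. As not every pair was above 0.1, the libraries were taken to share only a number. The pairs above 0 were alike in having or lacking cerebellar reads, and those below 0 differed in them. The check therefore cannot decide whether same-numbered libraries were paired. A fit with the replicate block called 0 of the 8 genes and 0 of all genes for treatment, and only Prkcd changed sign, to 0.0073 in both sexes. No block could be fitted between the sexes, because the blocks lie within a sex. With 33 to 92 reads per library, Gbx2 has the widest interval of the 8.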
